A study of Mus musculus with 6 samples.

Results

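The 9 genes described here mark B cells: Cd79a, Cd79b, Ms4a1, Pax5, Fcmr, Blk, Cd22, Ebf1 and Cr2. They were picked by name with earlier results of these data known, so counts among them are descriptions. Probes of the deposited arrays whose platform gene symbol is one of them were used. Each gene was read from the probe with the highest mean over all arrays. Of the 9, 8 had at least 1 probe (16 probes in all) among 19057 named genes. No probe was paired with Cd79a in the annotation used here, so Cd79a was not analysed here. A brightness filter described below kept 7 of the 8 among 12382 genes, and Pax5 fell below it.

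RNA came from lung antigen presenting cells of female C57BL/6 mice and was read on 6 Illumina mouse arrays. The labels form 3 groups of 2 arrays: Spp1-/- mice given cigarette smoke for 4 months (Spp1-/- smoke), Wild type mice given the same smoke (WT smoke), and Wild type mice kept in Room air (WT air). Spp1 encodes osteopontin, a secreted matrix protein and cytokine. No array came from Spp1-/- mice in Room air, no probe was paired with Spp1, and the labels used here give neither the age of the mice nor the way the cells were isolated. They also do not state whether both arrays of a group hold RNA of different animals, and the p-values therefore rest on array-to-array spread that may be technical.

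B cells recognise antigen through a surface immunoglobulin that signals through the paired chains Cd79a and Cd79b, and they also present antigen to T cells on MHC class II. Src family kinases such as Blk start the signal, the co-receptor Cr2 lowers its threshold when complement is bound to the antigen, and Cd22 restrains it. Ebf1 and Pax5 are the transcription factors that set and hold B cell identity. In the lung, B cells lie scattered in the tissue and in lymphoid aggregates near the airways, which are known to enlarge in smokers and in smoke-exposed mice.

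All values are deposited log2 intensities, so a difference of 1 is a 2-fold difference. They ran from 6.619 to 16.014, the median over all probes was 7.264, and dim probes lie near the floor, where differences are compressed. Every array of the 7 kept genes lay above the filter value of 7.27. Replicate arrays correlated over all probes with Pearson r between 0.977 and 0.994, lowest in WT air. As a check of the labelled cells, means over all arrays of the 10 alveolar macrophage markers ran from 7.40 (Fabp4) to 15.65 (Chil3), with Siglecf at 7.54 and Mrc1 at 13.89. Those of the 8 conventional dendritic cell markers ran from 7.17 (Cd209a) to 9.97 (Itgae), with Flt3 at 7.29, Zbtb46 at 7.73 and Clec9a at 9.54. Each list thus held markers near the median of all probes and markers well above it. The same held for the 16 lung epithelium markers, from 7.04 (Lamp3) to 15.16 (Scgb1a1), so this check does not show that other cells were absent.

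Promoter sequences are shown for 2 members whose signal differed between smoke and air and whose windows held a searched motif. RefSeq windows of GRCm38.p6, 250 bases before to 50 after a transcript start, were matched to 6 members (7 windows, 2 of them for Ebf1). The motifs, searched on both strands, were the EBF1 motif (TCCC, any 2 bases, GGGA), the octamer ATGCAAAT, the ETS core GAGGAA used by PU.1, and the E box CAGNTG. The first line holds the 250 bases before the Fcmr start (chr1:130865527-130865776, + strand), with an E box and the ETS core on the opposite strand in capitals. The second holds 30 bases from -59 to -30 of a Cd22 transcript start (chr7:30879058-30879087, - strand), with the EBF1 motif in capitals. This stretch lies inside the annotated Cd22 gene (30865404 to 30880342).
Fcmr: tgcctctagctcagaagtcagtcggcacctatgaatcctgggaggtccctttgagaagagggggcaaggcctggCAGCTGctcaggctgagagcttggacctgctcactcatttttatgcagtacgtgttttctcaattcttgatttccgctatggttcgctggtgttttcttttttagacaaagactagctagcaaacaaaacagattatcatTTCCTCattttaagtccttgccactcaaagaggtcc
Cd22: tcctgcaagaTCCCTGGGGActcacacaga

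The EBF1 motif was found in 1 of the 7 member windows (Cd22) and in 0.904% of all 32851 windows. The ETS core stood in 3 of 7 (Fcmr, Cd79a and 1 window of Ebf1) against 28.3% of all windows, and the E box in 4 of 7 (Fcmr, Cr2, Cd79a and Cd22) against 51.4%. The octamer stood in 0 of 7, against 1.74%. The ETS core began 36 bases before the Fcmr start, and the EBF1 motif 49 bases before that Cd22 transcript start. No 2 of these motifs overlapped in the printed stretches. A match is a run of letters, and binding was not measured.

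The first comparison asked how the B cell genes of Wild type preparations differed between smoke and air. Cd79b, Fcmr, Cr2, Blk and Cd22 were lower after smoke, by 6.29-fold for Cd79b, 5.92-fold for Fcmr, 2.03-fold for Cr2, 1.81-fold for Blk and 1.74-fold for Cd22. Ms4a1 and Ebf1 did not pass. Of the 7 kept genes, 5 were thus lower and 0 higher at a limma adjusted p under 0.05, while 10.3% of all kept genes were lower and 11.1% higher. Both WT smoke arrays lay below both WT air arrays for the same 5 genes, as they did for 24.8% of all kept genes. The median log2 fold change was -0.86 over the 7 genes and 0.04 over all kept genes. In RNA from a whole preparation, fewer cells of a type and less RNA per cell cannot be told apart.

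Cd79b, the signalling partner of Cd79a in the antigen receptor, stood at 10.28 and 10.14 in WT smoke, against 13.00 and 12.73 in WT air. Fcmr, the Fc receptor for IgM, stood at 11.13 and 11.42 in WT smoke, against 13.74 and 13.94 in WT air. For both genes the gap between the groups was many times the gap between replicate arrays. The limma log2 fold change was -2.65 ± 0.20 (SE) for Cd79b (adjusted p = 0.00233) and -2.57 ± 0.23 for Fcmr (adjusted p = 0.00308).

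Blk, the Src family kinase, had 9.04 and 9.14 in WT smoke, against 10.12 and 9.78 in WT air. Cd22, the inhibitory sialic acid-binding receptor, had 10.49 and 10.62 in WT smoke, against 11.29 and 11.41 in WT air. Cr2, the receptor for complement fragments, which follicular dendritic cells also carry, had 7.36 and 7.47 in WT smoke, against 8.31 and 8.58 in WT air. Each of these 3 genes was lower on both smoke arrays, by more than the distance between replicates of either group. The log2 fold changes were -0.86 ± 0.14 for Blk, -0.80 ± 0.11 for Cd22 and -1.02 ± 0.17 for Cr2 (SE), with limma adjusted p of 0.0155, 0.00979 and 0.0155.

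Ms4a1, which encodes the B cell surface protein CD20, had 7.53 and 7.68 in WT smoke, against 7.67 and 8.35 in WT air. The groups overlapped, and the log2 fold change of -0.40 had a 95% interval from -1.0 to 0.20 (limma adjusted p = 0.312). Ebf1 stood at 7.64 and 7.72 in WT smoke, against 7.86 and 7.65 in WT air, with an interval from -0.37 to 0.21 around a change of -0.08 (adjusted p = 0.71). Ebf1 is also transcribed in fibroblasts and pericytes. Pax5 had 7.16 and 7.20 in WT smoke, against 7.15 and 7.14 in WT air. It lay below the median of all probes in every array, where a change would be compressed, and in a fit with no filter its difference was 0.04 (adjusted p = 0.791).

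**Figure D1:**
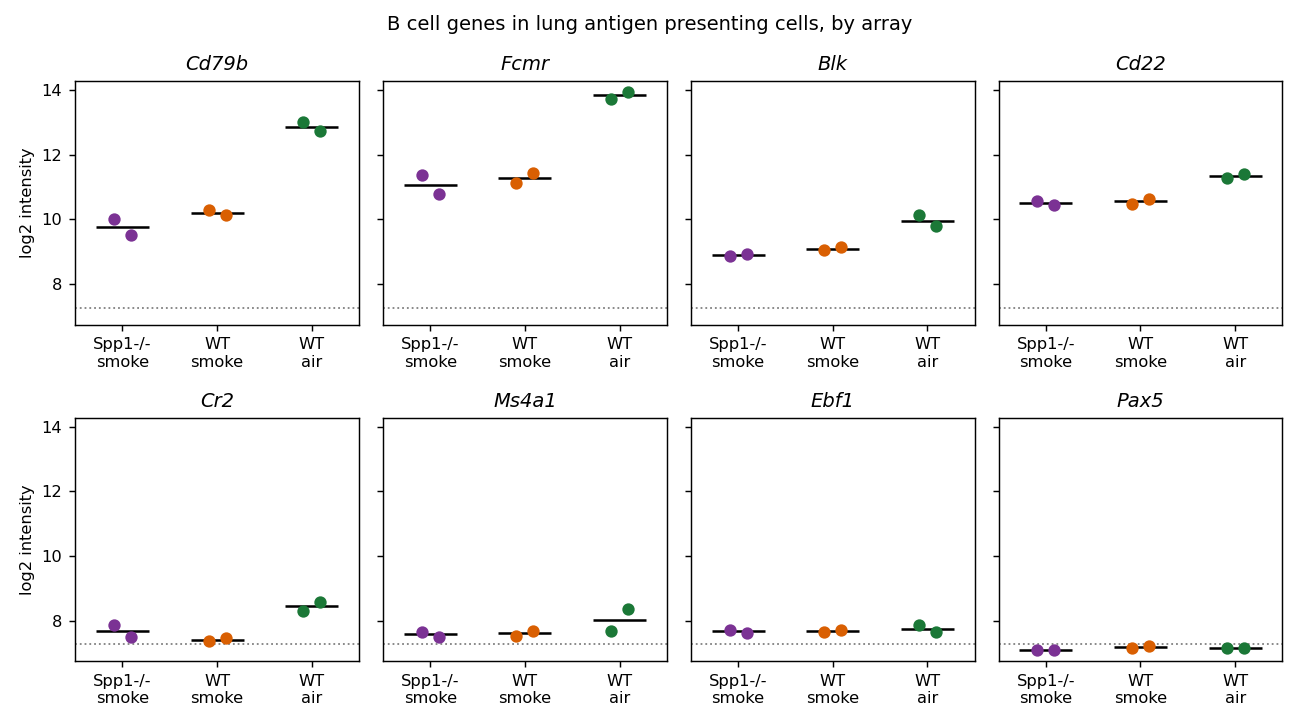
Log2 intensity (vertical axis) of 8 B cell genes in each of the 6 arrays, by group: Spp1-/- smoke, WT smoke and WT air. Points are arrays, bars are means of 2 arrays, and the dotted line is the median of all probes (7.264). Cd79b, Fcmr, Blk, Cd22 and Cr2 lie lower in all smoke arrays than in either air array, and Pax5 lies below the dotted line throughout.

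The calls of Blk, Cd22 and Cr2 held without either WT air array and without either Spp1-/- array, but not without each WT smoke array. Without WT smoke replicate 1, 2 of the 7 genes passed (Cd79b and Fcmr), and Blk, Cd22 and Cr2 had limma adjusted p of 0.098, 0.0732 and 0.0977. Without WT smoke replicate 2, 3 passed, and Blk (0.077) and Cr2 (0.0773) did not. Ms4a1 passed only without WT air replicate 1 (log2 fold change -0.74, adjusted p = 0.0172) and stood at -0.06 without WT air replicate 2. Cd79b and Fcmr passed under all 14 alternative fits in which their values were computed. The fits without either Spp1-/- array repeated that of the 2 groups alone and are not separate checks.

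A gene's other probes gave smaller changes. The second Cd79b probe had 7.19 and 7.20 in WT smoke, against 8.29 and 8.21 in WT air, a difference of -1.05 that had the sign of the brighter probe. The second Blk probe had 7.50 and 7.60 in WT smoke, against 8.27 and 8.06 in WT air (-0.61). The second Cd22 probe averaged 8.08 ± 0.12 in WT smoke and 8.26 ± 0.11 in WT air (SD, n = 2 each), a difference of -0.18. The third probes of Blk and Cd22 and the second of Cr2 had means between 6.86 and 7.07 and differences between -0.08 and 0.02. Both other Ebf1 probes lay within 0.08 of no difference. With a gene's probes averaged, the log2 fold changes came to -1.85 for Cd79b, -0.51 for Blk, -0.35 for Cd22 and -0.50 for Cr2, all still lower at an adjusted p under 0.05. With the floor of the scale removed, the Cr2 change was -1.58 (limma adjusted p = 0.0122).

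**Figure D2:**
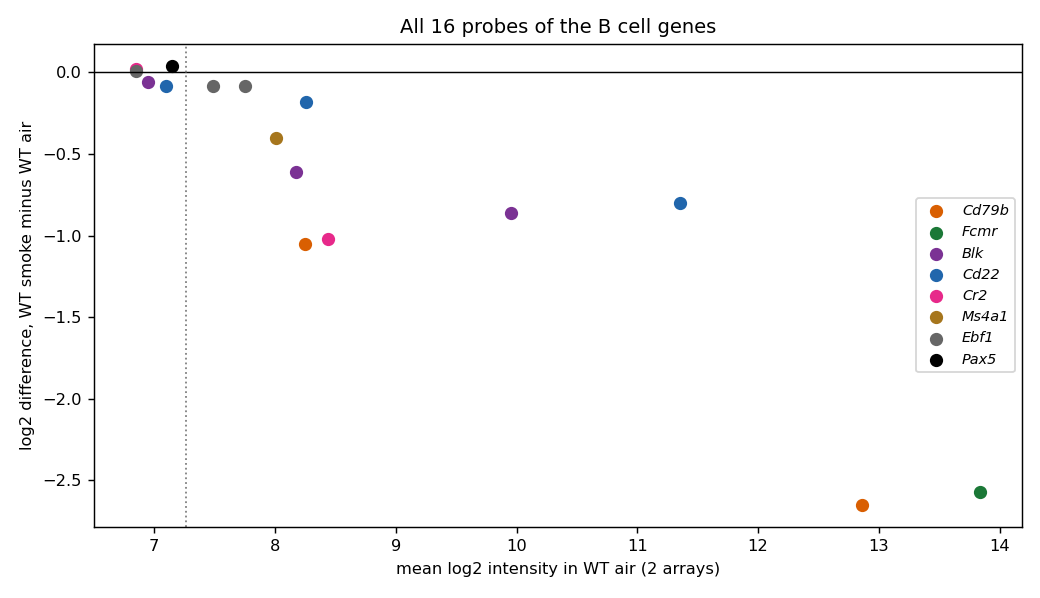
Log2 difference of WT smoke minus WT air (vertical axis) against the mean log2 intensity in WT air (horizontal axis) for all 16 probes of the 8 genes, 1 point per probe. The dotted line is the median of all probes (7.264); probes near or below it show differences near 0, and the lowest differences are those of the main Cd79b and Fcmr probes, -2.65 and -2.57.

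Other genes of the B lineage were read from a separate list of 20, of which 19 had a probe and 18 were kept. Of these 18, 9 were lower after smoke and 0 higher, where 10.3% of all kept genes were lower and 11.1% higher. Their median log2 fold change was -0.91. Fcrla, an intracellular Fc receptor-like protein of B cells, had 8.76 and 9.16 in WT smoke, against 11.23 and 11.08 in WT air (-2.19 ± 0.26, limma adjusted p = 0.00605). Ly6d, a surface protein of early and mature B cells, had 8.08 and 8.40 in WT smoke, against 9.99 and 10.07 in WT air (-1.79 ± 0.14, adjusted p = 0.0026). H2-Ob, a chain of the B cell modulator of peptide loading onto MHC class II, changed by -1.37 (adjusted p = 0.00809), and Fcer2a, the low-affinity IgE receptor CD23, by -0.87 (adjusted p = 0.0124; -0.28 with averaged probes).

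The remaining lower genes were Cd72, Cxcr5, Ralgps2, Siglecg and Vpreb3, named here because they complete the count. Cd37, Blnk, Bank1, Spib, Bcl11a, Cnr2, Fcrl1, Pou2af1 and Tnfrsf13c did not pass. Leaving out each array in turn gave between 3 and 9 lower genes, the fewest without WT smoke replicate 1, with 4 without either Spp1-/- array and 5 without WT smoke replicate 2. Fcer2a lost its call without either WT smoke array, and H2-Ob without WT smoke replicate 2. Ly6d and Fcrla kept theirs.

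Immunoglobulin chains could hardly be read: of 13 listed, 2 had a probe and 1 was kept. Ighg1, the IgG1 heavy chain, stood at 7.94 and 8.02 in WT smoke, against 7.80 and 8.06 in WT air, with overlapping groups (adjusted p = 0.854). Of 5 kept plasma cell genes, 2 were higher and 0 lower, where 11.1% of all kept genes were higher and 10.3% lower. Irf4, a transcription factor of plasma cells that macrophages and dendritic cells also use, had 9.45 and 9.48 in WT smoke, against 7.73 and 7.90 in WT air (1.65 ± 0.15, limma adjusted p = 0.00321). The signal peptidase subunit Sec11c changed by 0.64 (adjusted p = 0.02), a call lost without any 1 of the 4 smoke arrays. Mzb1, a chaperone of immunoglobulin assembly, changed by -0.49 and Tnfrsf13b, the receptor TACI, by 0.59, and neither passed (adjusted p = 0.0557 and 0.0524). Mzb1 has 1 probe, so averaging probes left its change at -0.49, and its limma adjusted p came to 0.0446.

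Signalling genes that B cells share with other leukocytes gave 2 higher and 1 lower of 16 kept, with a median of 0.12, where 11.1% of all kept genes were higher and 10.3% lower. Rasgrp3, a Ras activator downstream of the B cell receptor, had 10.05 and 9.53 in WT smoke, against 11.49 and 11.32 in WT air (-1.62 ± 0.19, limma adjusted p = 0.00631). Prkcb, protein kinase C beta, had 9.81 and 9.61 in WT smoke, against 8.52 and 8.20 in WT air (1.35 ± 0.19, adjusted p = 0.00979), and the inhibitory Fc receptor gene Fcgr2b changed by 0.74 (adjusted p = 0.0157). Malt1 did not pass (0.80, adjusted p = 0.069). Prkcb and Fcgr2b lost their calls without either WT smoke array. With averaged probes Fcgr2b was at 0.27 and did not pass (adjusted p = 0.0743), and Rasgrp3 was at -0.82 and did. Malt1 passed with the stricter filter (adjusted p = 0.0422).

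Transcription factors of B cell development other than Ebf1 and Pax5 gave 4 lower and 1 higher of 11 kept, with a median of -0.26. Of all kept genes 10.3% were lower and 11.1% higher. Ets1, which mature B and T cells and endothelium express, had 8.39 and 8.30 in WT smoke, against 10.89 and 10.85 in WT air (-2.53 ± 0.11, limma adjusted p = 0.00128). Pou2f2, the octamer factor Oct-2, changed by -1.18 (adjusted p = 0.0269), and Id3, an inhibitor of E box factors, by -1.05 (adjusted p = 0.0262). Spi1, which encodes PU.1 and is also central to macrophages, changed by 0.50 (adjusted p = 0.0264). Id3, Pou2f2 and Spi1 each lost their call without either WT smoke array and without either Spp1-/- array, Pou2f2 and Spi1 also without WT air replicate 2, and Ets1 kept its call. With averaged probes the Ets1 change was -0.64.

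Genes for B cell survival and homing gave 5 lower and 0 higher of 14 kept, with a median of -0.33. Of all kept genes 10.3% were lower and 11.1% higher. The chemokine genes Ccl21a and Cxcl12, products mainly of lymphatic endothelium and stroma, had the largest changes in this list by their brightest probes. With averaged probes Cxcl12 was at -0.61, while Ccl21a has 1 probe, so averaging could not change it. Ccl21a had 8.58 and 8.70 in WT smoke, against 11.37 and 11.87 in WT air (-2.98 ± 0.21, limma adjusted p = 0.00208). Cxcl12 had 8.53 and 8.58 in WT smoke, against 11.25 and 11.54 in WT air (-2.84 ± 0.13, adjusted p = 0.00128). Cd40, the receptor for T cell help, changed by -0.78 (adjusted p = 0.0181) and Il7 by -1.04 (adjusted p = 0.0353). Cd40 lost its call without WT smoke replicate 1 or either Spp1-/- array, and Il7 without either WT smoke array, either Spp1-/- array or WT air replicate 1, and with averaged probes (-0.38, adjusted p = 0.0617).

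Markers of other cell types moved in the same contrast, and their part in the B cell result was not tested. The counts below stand against 10.3% lower and 11.1% higher over all kept genes. Linear intensities summed over all 8 measured B cell genes ranged from 6130 to 6750 in WT smoke, against 26300 to 27200 in WT air. Fcmr and Cd79b held most of that difference. Of 11 kept endothelium markers, 10 were lower (list sum 5140 to 6570 in WT smoke, against 37100 to 50600 in WT air). All 12 kept fibroblast and smooth muscle markers were lower (19500 to 23000 in WT smoke, against 86500 to 94900 in WT air), as were 11 of 14 lung epithelium markers, with 1 higher (57900 to 66400 in WT smoke, against 148000 to 171000 in WT air). T cell markers gave 4 lower and 2 higher of 10 (13900 to 14600 in WT smoke, against 13300 to 14000 in WT air). Of the lower ones, Cd3e had 9.17 and 8.96 in WT smoke, against 10.40 and 10.69 in WT air. The 2 higher ones were Il7r (log2 fold change 1.79, limma adjusted p = 0.0241) and Cd8b1 (0.83, adjusted p = 0.0218). With averaged probes, Il7r was at 0.47 and Cd8b1 at -0.33. NK cell markers gave 1 lower of 6 (4460 to 6340 in WT smoke, against 12400 to 18000 in WT air), a difference held mostly by Prf1, at 11.21 and 12.11 in WT smoke, against 13.20 and 13.97 in WT air.

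Alveolar macrophage markers gave 3 higher and 2 lower of 10 (list sum 90700 to 93100 in WT smoke, against 77700 to 86100 in WT air). Plasmacytoid dendritic cell markers gave 1 higher and 2 lower of 6, and conventional dendritic cell markers 1 higher of 7. Of all kept genes 11.1% were higher and 10.3% lower. The median log2 fold changes were -2.54 for endothelium, -1.78 for fibroblasts and smooth muscle, -1.78 for epithelium, -0.12 for T cells, -0.19 for NK cells, -0.52 for plasmacytoid dendritic cells, 0.20 for conventional dendritic cells and 0.30 for alveolar macrophages. The value of -0.86 for the B cell genes lay between those of the T cell and the epithelium lists. Without WT smoke replicate 1, the lower genes numbered 9 for endothelium, 7 for fibroblasts and smooth muscle, 6 for epithelium and 1 for T cells. Without WT smoke replicate 2 they numbered 9 for endothelium, 7 for fibroblasts and smooth muscle, 7 for epithelium and 0 for T cells, and Prf1 lost its call without WT smoke replicate 1, either Spp1-/- array or WT air replicate 2, and with averaged probes (-1.09, adjusted p = 0.0514). No list had a marker at 0, since the scale has a floor, and between 0 and 3 measured genes of each of these lists had means under the median of all probes.

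**Figure D3:**
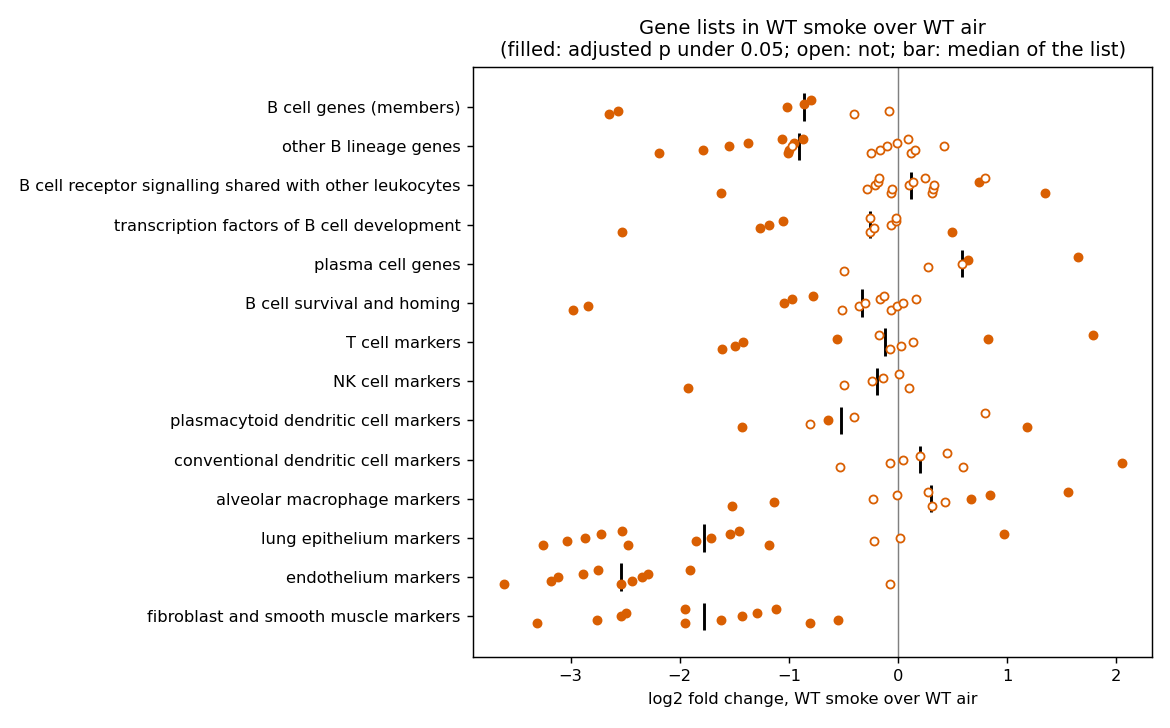
Log2 fold change of WT smoke over WT air (horizontal axis) for each kept gene of 14 lists (rows), from limma. Filled points passed an adjusted p under 0.05, open points did not, and vertical bars are list medians. The B cell genes and the other B lineage genes have medians of -0.86 and -0.91, and the endothelium markers one of -2.54.

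Across the 6 arrays, the mean profile of the 7 kept genes, each centred on its own mean, stood at -0.34 and -0.58 in Spp1-/- smoke, -0.42 and -0.32 in WT smoke, and 0.79 and 0.86 in WT air. Fcmr (Pearson r = 0.999 over 6 arrays) and Cd22 (0.995) followed the mean of the other members most closely, then Cd79b (0.979), Blk (0.941) and Cr2 (0.92), while Ms4a1 (0.698) and Ebf1 (0.499) followed it less. Among 3328 kept genes outside all lists with a range of at least 1, the 5 profiles most like the members' mean were those of Fermt2, Col4a1, Aqp1, Rarres2 and Cyb5r3 (Pearson r between 0.998 and 0.999 over 6 arrays). Col4a1 is a basement membrane collagen chain and Aqp1 a water channel of capillary endothelium. These correlations rest on 2 air and 4 smoke arrays that fall into separate levels, and they are given as descriptions.

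The second comparison asked whether the B cell genes differed between the genotypes when both were exposed to smoke. No member passed, and the fold changes lay between -0.44 for Cd79b and 0.27 for Cr2 on the log2 scale, with a median of -0.05 (0.00 over all kept genes). In limma 0 of 7 members and 0 of 12382 genes (0%) had an adjusted p under 0.05. At an unadjusted p under 0.05 these counts were 0 and 540.

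Cd79b had 10.01 and 9.53 in Spp1-/- smoke, against 10.28 and 10.14 in WT smoke, a difference of -0.44 with a 95% interval from -0.94 to 0.06. Fcmr had 11.36 and 10.79 in Spp1-/- smoke, against 11.13 and 11.42 in WT smoke (-0.20, interval -0.77 to 0.37). Blk had 8.88 and 8.94 in Spp1-/- smoke, against 9.04 and 9.14 in WT smoke (-0.18, interval -0.54 to 0.18). Cd79b and Blk were lower on both Spp1-/- arrays than on either WT smoke array, a pattern shared by 19.5% of all kept genes, and Fcmr overlapped.

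Cr2 had 7.86 and 7.50 in Spp1-/- smoke, against 7.36 and 7.47 in WT smoke (0.27, interval -0.16 to 0.69). It was the only one of the 7 that was higher on both Spp1-/- arrays, as were 18.3% of all kept genes. Cd22 had 10.56 and 10.45 in Spp1-/- smoke, against 10.49 and 10.62 in WT smoke (-0.05, interval -0.33 to 0.24). Ms4a1 had 7.66 and 7.50 in Spp1-/- smoke, against 7.53 and 7.68 in WT smoke (-0.03, interval -0.63 to 0.57), and Ebf1 7.70 and 7.63 in Spp1-/- smoke, against 7.64 and 7.72 in WT smoke (-0.01, interval -0.30 to 0.28). For these 3 genes the groups overlapped. The intervals still allow log2 differences between genotypes down to -0.94 for Cd79b and -0.77 for Fcmr. Pax5 had 7.08 on both Spp1-/- arrays, against 7.16 and 7.20 in WT smoke, all below the median of all probes.

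Of the 18 kept genes of the other B lineage list, 0 passed between genotypes, with a median of 0.00. At an unadjusted p under 0.05 stood 1 of the 18, and 540 of all 12382 kept genes. The 1 gene of the list was Cxcr5, the chemokine receptor that leads B cells into follicles, named here after its value was seen. Cxcr5 had 7.87 and 8.07 in Spp1-/- smoke, against 8.20 and 8.68 in WT smoke (-0.47, limma adjusted p = 1).

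The third comparison set smoke-exposed Spp1-/- preparations against Wild type preparations in air, which differ in genotype and smoke together and share their arrays with the other 2 comparisons. Cd79b, Fcmr, Blk, Cd22 and Cr2 were again lower, 5 of 7 against 10.5% of all kept genes, with 0 higher against 12.2%. Both Spp1-/- arrays lay below both air arrays for 6 of the 7, Ms4a1 included, and for 26.1% of all kept genes. Cd79b stood at 10.01 and 9.53 in Spp1-/- smoke, against 13.00 and 12.73 in WT air, 8.53-fold lower (-3.09 ± 0.20, limma adjusted p = 0.00198). Fcmr stood at 11.36 and 10.79 in Spp1-/- smoke, against 13.74 and 13.94 in WT air, 6.8-fold lower (-2.77 ± 0.23, adjusted p = 0.00262).

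The other changes were -1.03 for Blk (adjusted p = 0.00894), -0.84 for Cd22 (adjusted p = 0.00797) and -0.76 for Cr2 (adjusted p = 0.0327). Ms4a1 (-0.43, adjusted p = 0.273) and Ebf1 (-0.09, adjusted p = 0.661) did not pass. Without either Spp1-/- array only Cd79b and Fcmr passed of the 7. Cr2 also lost its call with averaged probes, array weights, a replicate block or only the 2 groups (limma adjusted p between 0.0569 and 0.0745). Leaving out either WT smoke array repeated the fit of the 2 groups alone. Without WT air replicate 2 the Cr2 change was -0.62, and its call was lost there too. Ms4a1 passed without WT air replicate 1 (-0.77, adjusted p = 0.0148). Of the 18 other B lineage genes 8 were lower, 2 without either Spp1-/- array and 5 without either WT smoke array.

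**Figure D4:**
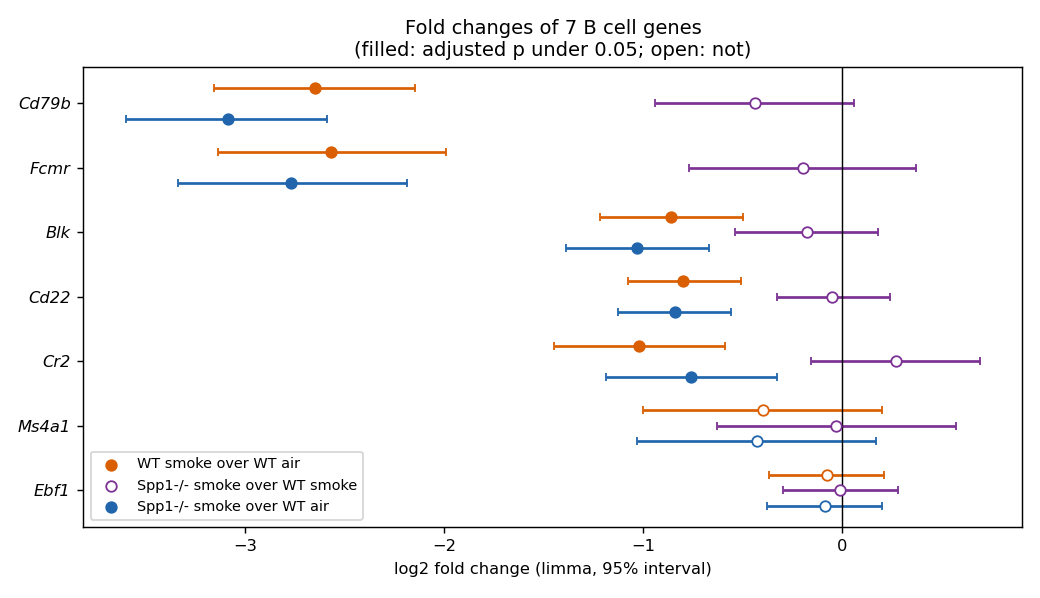
Log2 fold changes (horizontal axis) of the 7 kept B cell genes (rows) in 3 comparisons, with 95% intervals from limma. Filled points passed an adjusted p under 0.05 and open points did not. Both WT smoke over WT air and Spp1-/- smoke over WT air, which differs in genotype too, lie below 0 for Cd79b, Fcmr, Blk, Cd22 and Cr2, and all 7 intervals of Spp1-/- smoke over WT smoke include 0.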

How the data were processed

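Per the labels' protocols, Trizol was used to extract RNA, which an Ambion kit turned into biotinylated cRNA, and the submitters' processing notes name limma with no version. The deposited values are log2 intensities of 45281 probes. Their sorted columns differed by at most 0.0056 between arrays, as after quantile normalization. The sources used here do not give the background correction. A second deposited table was left out, since none of its 12 columns bears the name of a sample. Precision is limited by the number of arrays, 2 per group.

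Probes with 1 gene symbol (34885) were named by the platform annotation, updated by Entrez identifier through RefSeq (GRCm38.p6, 34807 matched). The brightest probe stood for each gene, and genes whose mean reached the median of all probe means (7.274) were kept. Limma 3.58.1 in R 4.3.3 fitted 1 coefficient per group over all 6 arrays (3 residual and 2.24 prior degrees of freedom). Benjamini-Hochberg adjustment covered every kept gene, and an adjusted p under 0.05 was a call. Exact permutations were not used, since 2 arrays against 2 give no p below 0.333. The script was tested on simulated data.

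Members and lists were chosen with earlier results of these data known, and no list was tested as a set. Named were all members, up to 4 genes of each other list with the smallest p for WT smoke over WT air, and 5 genes of like profile. Markers of macrophages and dendritic cells were added as a check of the labelled cells, and not every gene of the non-B cell lists that this rule allows is printed. The alternatives removed the filter or raised it to the 75% quantile, averaged a gene's probes, removed the floor (offset 16), used array weights or a robust prior with an intensity trend, fitted 2 groups alone, added a replicate block, asked for a 2-fold change, or left out each array in turn. A group left with 1 array takes its spread from the others. For a comparison that does not use that group, the fit then equals that of the 2 groups alone.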

Additional observations from a re-analysis of the deposited data

How the results depend on the processing

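For WT smoke over WT air, 2645 genes and 5 members were called. Fitting only the 2 groups gave 1489 genes, a 2-fold threshold 1295 genes and 3 members, and leaving out 1 array 743 to 3858 genes and 2 to 6 members. For Spp1-/- smoke over WT air (2804 genes, 5 members), the same choices gave 1842 genes, then 1327 genes and 3 members, then 673 to 4035 genes and 2 to 6 members. For Spp1-/- smoke over WT smoke, no member was called under any alternative run. Over all genes the count was 8 with the stricter filter, 7 with the trend and robust prior, 9 with array weights, 6 with only the 2 groups, and 0 to 6 with 1 array left out. Signs turned for genes that were not called in the comparison concerned, and for Cd8b1, which was called. With averaged probes, Cd8b1 was at -0.33 and Klrk1 at 0.03 for WT smoke over WT air, and Cd22 at 0.01 between genotypes. With 1 array left out, the WT smoke over WT air values ran from -0.18 to 0.03 for Ebf1, -0.08 to 0.18 for Ighg1, -1.01 to 0.04 for Klrd1, -0.53 to 0.06 for Nkg7 and -0.69 to 0.40 for Klrk1. Between genotypes they ran from -0.11 to 0.05 for Ms4a1, -0.48 to 0.09 for Fcmr, -0.12 to 0.02 for Cd22 and -0.05 to 0.03 for Ebf1. For Spp1-/- smoke over WT air, Ebf1 ran from -0.19 to 0.02. The causes were not tested. Same-numbered arrays deviated together weakly or not at all (correlations of 0.14, -0.03 and -0.08). This cannot settle whether the samples were handled in pairs, which the labels do not state. With the replicate number as a block, 2248, 0 and 2367 genes were called for WT smoke over WT air, Spp1-/- smoke over WT smoke and Spp1-/- smoke over WT air, with 5, 0 and 4 members (Cr2 lost its call). Raw-signal normalization and detection filters were not run, since the columns of that table match no label. Probes near the floor of the scale limit what Pax5, Ms4a1, Ebf1 and Cr2 can show.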

Other observations

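The 2 WT air arrays differed by more than 0.5 on the log2 scale for 7 of the 25 kept B cell and B lineage genes. Air replicate 1 was the higher array for 6 of them and air replicate 2 for 1, Ms4a1 (7.67 and 8.35). The matching shares of all kept genes were not computed, so no trait of B lineage genes is read from these counts. Over all kept genes the median SD was 0.149 in WT air, 0.0909 in WT smoke and 0.0869 in Spp1-/- smoke. The genes given here were chosen after their values were seen. Tnfrsf13c, the receptor for the survival factor BAFF, had 8.77 on air replicate 1 and 7.27 on air replicate 2. In the smoke groups Tnfrsf13c had 7.75 and 7.69 in Spp1-/- smoke, against 7.03 and 7.07 in WT smoke, a log2 difference of 0.68 with a 95% interval from -0.52 to 1.87 that did not pass (limma adjusted p = 1). Pou2af1, the B cell octamer co-activator, had 7.98 on air replicate 1 and 6.89 on air replicate 2, and Ralgps2 had 11.04 and 10.08. Il7, a growth factor of developing B cells, had an unadjusted p of 0.0203 for Spp1-/- smoke over WT smoke (0.77, limma adjusted p = 1). In that comparison 540 of all 12382 kept genes had an unadjusted p under 0.05.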
